A study of Xenopus laevis with 12 samples.

Results

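The salt-inducible kinases are represented in the Xenopus laevis gene count table by 5 rows, sik1.S, sik2.L, sik2.S, sik3.L and sik3.S, out of 42638 rows in all. The frog is an allotetraploid, and the endings .L and .S name the copy of a gene on the long and on the short chromosome of each pair. Members were taken by symbol, and the family itself was chosen by the measured values of sik1.S, which were higher with thioridazine. For that reason the thioridazine values of all 5 rows are given as a description with no test, whereas group size and the differences among replicate numbers did not enter the choice and were tested. All 5 rows were among the 21731 genes kept by the filter on low values (at least 1.8 CPM, counts scaled to library size, in at least 3 libraries), and each reached that level in all 12 libraries. No row was named sik1.L, so that copy was not analysed here, and whether it is listed under another name was not settled.

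Whole wild-type embryos were sequenced at stage 25, the early tail bud, in 12 libraries of 15 pooled embryos each, after depletion of ribosomal RNA. The 4 groups of 3 libraries were untreated embryos in small groups (100 embryos in a dish), untreated embryos in large groups (300 embryos), and small and large groups kept in 90 µM thioridazine from stage 12.5 to stage 25. Thioridazine is a phenothiazine antipsychotic that blocks dopamine receptors, and the study asked whether its effect on development depends on the number of embryos raised together. All groups were kept in diluted Ringer's solution (0.1x MMR). Every library is a mixture of all tissues, so fewer cells of a type and less RNA per cell cannot be told apart.

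The salt-inducible kinases are serine/threonine kinases of the AMPK-related family that are switched on by the tumour suppressor kinase LKB1. In mammals they phosphorylate the CRTC coactivators of the transcription factor CREB and the class IIa histone deacetylases, which are then held in the cytoplasm by 14-3-3 proteins, so that CREB and MEF2 target genes stay low. Protein kinase A, acting downstream of cAMP, phosphorylates the kinases in turn and lifts this brake, and Sik1 is itself a CREB target gene in mammals, which closes a feedback loop. Sik1 takes its name from its induction in the adrenal glands of rats fed a high salt diet, Sik2 was described in fat tissue, and Sik3 acts in cartilage growth and sleep in mice.

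The libraries held 3497198 to 7822395 counts assigned to genes, and the group medians were 3701983 in untreated small, 6720632 in untreated large, 6709207 in thioridazine small and 5147104 in thioridazine large groups. Of 29 marker symbols for 10 embryonic tissues, 23 exceeded 1 CPM in every library, and each tissue had at least 1 of them. Blood rested on tal1 alone (12.7 to 37.3 CPM), since gata1 (0 to 1.14 CPM) and hba1 (0 to 0.301 CPM) did not pass. Heart also rested on a single marker, since tnnt2 stayed at 0 to 0.571 CPM. myh6, which the marker list placed under muscle, fell to 0.903 CPM, and noto and sox17b had no rows. The labels do not say whether the 3 libraries of a group came from separate clutches, so a p-value here covers only the variation among these samples, which may be technical. Libraries of the same replicate number deviated together in all 4 groups, and results that change when the number is included as a block are given with both values.

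sik1.S, the only sik1 row, was a low-abundance transcript in untreated embryos. In untreated small groups it was at 3.66, 3.18 and 2.00 CPM in replicates 1, 2 and 3, resting on 25, 11 and 7 counts. In untreated large groups it was at 5.56, 4.06 and 3.75 CPM, from 42, 27 and 21 counts. All 6 untreated libraries thus lay between 2.00 and 5.56 CPM, with a median of 3.70 CPM. In thioridazine small groups the 3 libraries were at 45.8, 20.6 and 11.5 CPM, from 322, 164 and 39 counts. In thioridazine large groups they were at 72.0, 17.1 and 8.18 CPM, from 370, 127 and 27 counts. The treated libraries ranged from 8.18 to 72.0 CPM with a median of 18.8, and the lowest of them stood above the highest untreated library. The family was chosen for this rise, and the share of all genes that separated by treatment was not counted. The separation is therefore a description only.

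**Figure D1:**
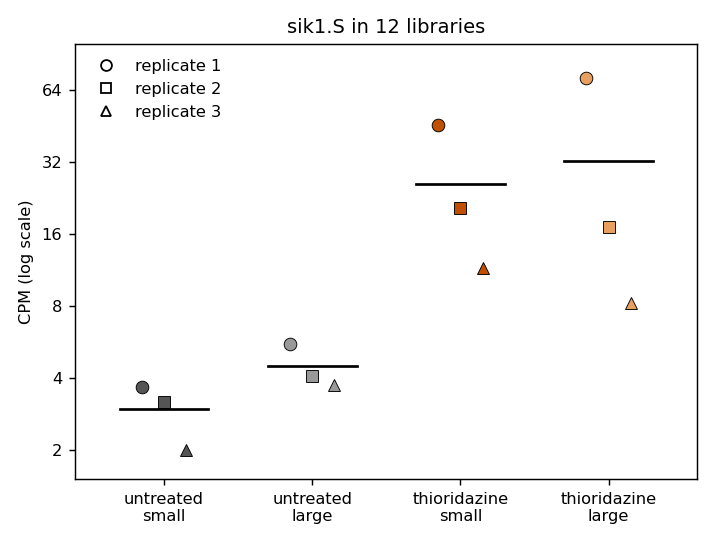
Level of sik1.S in each of the 12 libraries, as CPM on a log axis, by group, with marker shapes for the replicate numbers and a line at the mean of each group of 3. The 6 treated libraries sit between 8.18 and 72.0 CPM, all above the 6 untreated libraries, and replicate 1 is the highest and replicate 3 the lowest of every group. The family was chosen for the rise of sik1.S with thioridazine, so the separation by treatment is a description only.

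Averaged over the group sizes, the log2 fold change of sik1.S with thioridazine was 2.98 (standard error, SE, 0.53). It was 3.11 (SE 0.77) in small groups and 2.86 (SE 0.72) in large groups. By size of the averaged fold change sik1.S stood at place 7 of 21731 genes. With the replicate number as a block the fold change was 2.88 (SE 0.28). Each SE restates the test of the contrast for which sik1.S was chosen, so neither SE is support for the rise. Over all genes, edgeR's quasi-likelihood test called 0.0874% higher and 0% lower with thioridazine without the block, and 0.433% higher and 0% lower with it. These shares are given as background only, because the family was picked for this contrast.

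The size of the difference in sik1.S varied with the replicate number. Treated over untreated within the same number, the ratio in replicate 1 was 12.53 in small and 12.95 in large groups. It was 6.485 and 4.196 in replicate 2. It was 5.755 and 2.185 in replicate 3. sik1.S was therefore higher with thioridazine in 6 of 6 pairs, with the largest ratios in replicate 1 at both group sizes. The count of pairs is a description only, since the family was chosen for this rise. The replicate 3 libraries of the treated groups, which had the lowest treated sik1.S, were also the shallowest treated libraries, with 3639288 counts in small and 3497198 in large groups. The part of depth in this spread was not tested.

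The level of sik1.S also differed among the replicate numbers. Averaged over the group sizes, untreated replicates 1, 2 and 3 were at 4.61, 3.62 and 2.87 CPM and treated replicates at 58.9, 18.8 and 9.85 CPM. The order was the same in each of the 4 groups. An edgeR quasi-likelihood test of the replicate number, with group in the model, gave adjusted p = 0.001149 for sik1.S and adjusted p = 0.03605 for sik2.L. Thus 2 of the 5 rows were called, against 39.7% of all genes, so a share of this size is not particular to the family. The model held no term for a replicate difference that changes with treatment. A difference shared by all groups and one found mainly in treated groups were therefore not told apart. Between-group differences held 72.5% of the variance of log2 CPM of sik1.S and replicate numbers 19.0%. The first share is a description only, since sik1.S was chosen for being higher with thioridazine.

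Group size was the comparison that the choice of the family did not touch. sik1.S averaged 2.95 ± 0.854 CPM (SD, n = 3) in untreated small groups and 4.46 ± 0.970 in untreated large groups. The 3 libraries of each group did not overlap, and large exceeded small in 3 of 3 numbered pairs, with ratios of 1.52, 1.28 and 1.87. How many of all genes separated in this way was not counted, so the separation is a description only. The log2 difference, large minus small, was 0.57 (SE 0.80) and did not pass the test (edgeR, adjusted p = 0.9999), and with the block it was 0.74 (SE 0.49, adjusted p = 0.738). Among treated embryos the means were 26.0 ± 17.8 CPM in small and 32.4 ± 34.6 in large groups, and the libraries overlapped. The treated difference was 0.31 (SE 0.65, edgeR adjusted p = 1), large being higher in 1 of 3 pairs, replicate 1. Its direction rested on single libraries, since it was -1.03 without thioridazine large replicate 1 and 1.00 without thioridazine small replicate 1. The response to group size differed between treated and untreated embryos by -0.26 (SE 1.02, edgeR adjusted p = 1), and by -0.62 with the block (SE 0.58, edgeR adjusted p = 0.9641). It was -1.60 without thioridazine large replicate 1 and 0.43 without thioridazine small replicate 1.

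sik2.L was the other member whose libraries separated by group size in untreated embryos. Its levels in untreated small groups were 12.1, 9.54 and 7.71 CPM in replicates 1, 2 and 3, with a mean of 9.80 ± 2.23 (SD, n = 3). In untreated large groups they were 15.0, 14.9 and 12.5 CPM, with a mean of 14.1 ± 1.41. The lowest large library stood just above the highest small one, and the ratios of the numbered pairs were 1.23, 1.56 and 1.62. As for sik1.S, the share of all genes that separated in this way was not counted. The log2 difference was 0.51 (SE 0.30, edgeR adjusted p = 0.9999) without the block and 0.54 (SE 0.21, unadjusted p = 0.02322, edgeR adjusted p = 0.5829) with it. It was above 0 in 20 of 20 alternative settings, between 0.37 and 0.71, and adjusted over all genes it passed in none of them. These settings reuse the same untreated libraries, and those that drop a treated library hardly touch this contrast. They are therefore not independent support for the direction.

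In thioridazine small groups sik2.L was at 18.9, 15.5 and 9.74 CPM, with a mean of 14.7 ± 4.65 (SD, n = 3). In thioridazine large groups it was at 18.1, 9.53 and 11.5 CPM, with a mean of 13.1 ± 4.48. These libraries overlapped each other and those of untreated embryos. The treated group-size difference was -0.19 (SE 0.30), with large higher in 1 of 3 pairs. It differed from the untreated one by -0.70 (SE 0.43, edgeR adjusted p = 1), and by -0.76 with the block (SE 0.30, unadjusted p = 0.02275, edgeR adjusted p = 0.8954). As a description, the thioridazine log2 fold change of sik2.L was 0.59 (SE 0.30) in small groups, -0.12 (SE 0.30) in large groups and 0.23 (SE 0.21) averaged.

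The other copy of this gene, sik2.S, varied less in untreated embryos. It was at 6.88, 6.65 and 7.43 CPM in untreated small and at 7.28, 7.83 and 8.38 CPM in untreated large groups. Treated small libraries spread over a wider range, at 12.39, 8.67 and 4.13 CPM. Treated large libraries were at 7.01, 8.86 and 6.06 CPM. Each treated group spanned the whole untreated range, and the averaged thioridazine log2 fold change was 0.10 (SE 0.23), with 3 of 6 pairs higher. The group-size difference was 0.16 (SE 0.33) in untreated and -0.21 (SE 0.33) in treated embryos, in both cases smaller than its error, and neither passed the edgeR test.

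**Figure D2:**
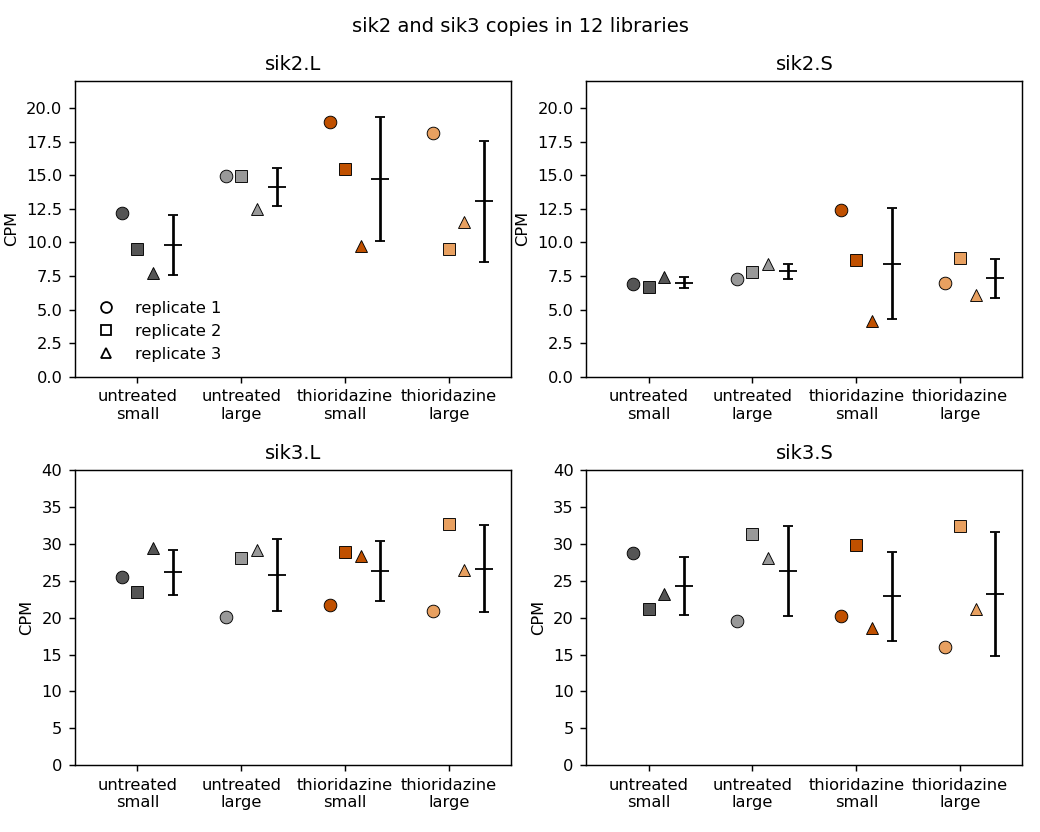
Level of the sik2 and sik3 copies in each of the 12 libraries, as CPM on axes that start at 0, by group, with marker shapes for the replicate numbers and bars for the mean ± SD of 3 libraries. The untreated small and large libraries of sik2.L do not overlap (7.71 to 12.1 against 12.5 to 15.0 CPM), while the groups of the other 3 copies overlap. The share of all genes that separate in this way was not counted.

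sik3, the kinase of the family tied to cartilage growth and sleep in mice, did not separate by group in either copy. sik3.L was at 25.5, 23.4 and 29.4 CPM in untreated small, 20.1, 27.995 and 29.1 in untreated large, 21.6, 28.9 and 28.3 in thioridazine small and 20.8, 32.6 and 26.4 in thioridazine large groups. sik3.S was at 28.7, 21.1 and 23.1 CPM in untreated small, 19.6, 31.3 and 28.01 in untreated large, 20.2, 29.8 and 18.6 in thioridazine small and 15.96, 32.4 and 21.2 in thioridazine large groups. The 4 groups overlapped for both copies, and neighbouring group means differed by less than their SD. Group-size differences were -0.02 (SE 0.22) for sik3.L and 0.11 (SE 0.29) for sik3.S in untreated embryos, and 0.02 for each in treated embryos (SE 0.22 and SE 0.29). The averaged thioridazine log2 fold changes, as a description, were 0.03 (SE 0.16) for sik3.L and -0.13 (SE 0.20) for sik3.S. Most of the spread of sik3.L went with the replicate number (63.5% of its variance, against 0.614% for group), replicate 1 being lowest at a mean of 22.02 CPM against 28.2 and 28.3 in replicates 2 and 3. The test of that difference did not pass (edgeR, adjusted p = 0.06882).

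**Figure D3:**
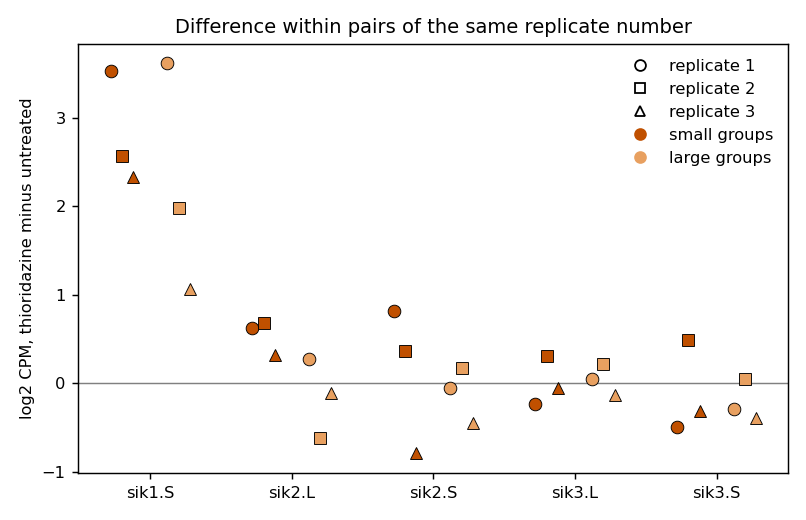
Difference in log2 CPM between the treated and the untreated library of the same replicate number and group size, for each of the 5 rows, with 6 pairs per row and a line at 0. sik1.S, chosen for being higher with thioridazine, is higher in 6 of 6 pairs, whereas sik2.L is higher in 4, sik2.S and sik3.L in 3 and sik3.S in 2 of 6.

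Counted over the family, group size gave 0 of 5 rows called in untreated embryos, in treated embryos, averaged over both and for the difference between the responses. The background in these 4 contrasts was 0% of all genes in edgeR, without and with the block. At an unadjusted p under 0.05, edgeR without the block gave 383, 158, 293 and 215 genes of 21731, of which 0 were sik rows. With the block it gave 1649, 648, 1121 and 1176 genes, with 1 sik row, sik2.L, in the first and in the fourth contrast. DESeq2 called 1, 3, 2 and 1 genes, all lower, and limma voom 0 in each, with 0 sik rows in either.

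Some reads of sik2 and of sik3 were divided between the .L and .S copies during counting, so the level of each copy on its own is uncertain. The counts of sik1.S were whole numbers in 12 of 12 libraries. Those of sik2.L, sik2.S, sik3.L and sik3.S were whole in 0 of 12, while the sum of the copies of each gene was whole, within 0.005, in 12 of 12. The .L copy took 62.5% ± 6.54 (SD, n = 12) of the sik2 counts and 52.3% ± 4.02 of the sik3 counts. By group the sik2 share was 57.7% ± 6.70 (SD, n = 3) in untreated small, 64.2% ± 3.70 in untreated large, 64.7% ± 4.33 in thioridazine small and 63.1% ± 10.6 in thioridazine large groups. With copies summed, the untreated group-size difference was 0.39 (SE 0.26) for sik2 and 0.06 (SE 0.25) for sik3, and neither passed the edgeR test.

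In the RefSeq annotation of Xenopus_laevis_v10.1, sik1.S lies on chromosome 2S. The other copies lie on 7L (sik2.L and sik3.L) and 7S (sik2.S and sik3.S). The starts of 20 protein-coding genes fall between sik2 and sik3 on 7L and of 9 on 7S. Across the 12 libraries, which share replicate numbers and groups, Pearson's r of log2 CPM was 0.71 between sik3.L and sik3.S and 0.47 between sik2.L and sik2.S. These copies also share divided reads. It was 0.63 between sik1.S and sik2.L and -0.36 between sik1.S and sik3.S.

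The genes whose levels followed sik1.S most closely were ranked by Pearson's r over the 12 libraries among 21730 others. They were nr4a1.L (r = 0.983), an orphan nuclear receptor, junb.L (0.959), an AP-1 subunit, zfp36.S (0.958), an mRNA-destabilizing protein, insig1.S (0.951), a regulator of sterol synthesis, and maff.L (0.938), a small Maf transcription factor. After the replicate means were subtracted, the first 5 were nr4a1.L (0.992), gclc.L (0.965), insig1.S (0.961), junb.L (0.959) and XB22063314.S (0.954). gclc encodes the catalytic subunit of an enzyme of glutathione synthesis, and XB22063314.S is an identifier without a gene symbol. The points share treatment and library, and 15 genes exceeded 0.9 before and 47 after removing the replicate means. nr4a1.L was at 7.76, 6.65 and 7.43 CPM in untreated small and at 10.5, 7.38 and 7.67 in untreated large groups. It was at 53.7, 30.9 and 23.3 CPM in thioridazine small and at 81.0, 24.7 and 19.7 in thioridazine large groups. As for sik1.S, the treated and untreated libraries did not overlap, and replicate 1 was the highest treated library at both group sizes. nr4a1.L was named for its correlation with sik1.S over these same libraries. The shared pattern follows from that choice and is a description only.

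**Figure D4:**
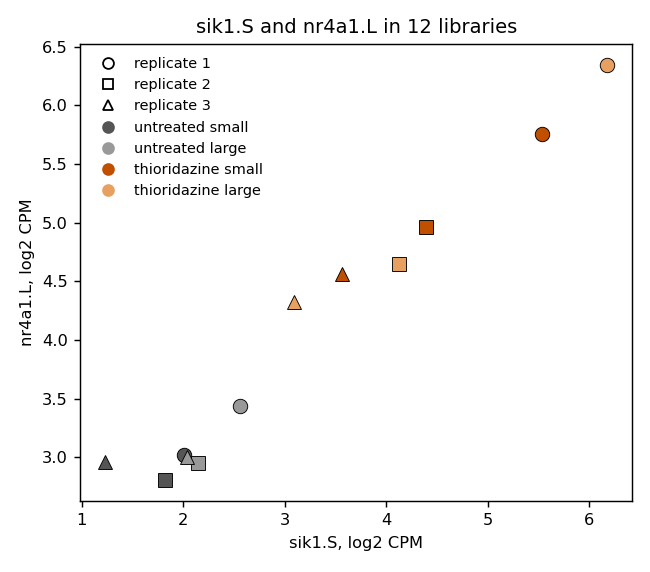
log2 CPM of sik1.S against log2 CPM of nr4a1.L in the 12 libraries, with shapes for replicate numbers and colours for groups. The points lie close to 1 line (Pearson's r = 0.983), the 6 untreated libraries at the lower left and the 2 treated replicate 1 libraries at the upper right. nr4a1.L was picked for having the highest r, and treatment sets the 2 ends of the line apart. Among the untreated libraries sik1.S runs from 1.23 to 2.56 and nr4a1.L from 2.81 to 3.44 log2 CPM.

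The surrounding pathway was read from 8 lists of 96 symbols, tested for thioridazine averaged over the group sizes. Upstream, the LKB1 complex (the kinase with its partners STRAD and MO25) had 0 of 8 rows called and a median log2 fold change of 0.02, against -0.01 over all genes. Its smallest p-values belonged to cab39.S, an MO25 scaffold, at -0.18 (SE 0.12) and strada.S at 0.27 (SE 0.24). The other AMPK-related kinases, listed together with catalytic subunits of AMPK itself, had 0 of 15 called and a median of -0.03. Among them snrk.L was at 0.26 (SE 0.13) and mark2.S at 0.18 (SE 0.12). The cAMP and protein kinase A list, of cyclases, phosphodiesterases and kinase subunits, had 0 of 31 called and a median of 0.03. Its leading rows by p were the cyclase adcy5.S at -0.48 (SE 0.25) and the phosphodiesterase pde10a.S at 0.42 (SE 0.28). All 6 of these named rows had an edgeR adjusted p = 1.

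Downstream of the kinases, the 14-3-3 proteins had 0 of 12 rows called and a median of -0.03, with ywhah.L at -0.18 (SE 0.10) and ywhah.S at -0.18 (SE 0.16). The substrates, CRTC coactivators and class IIa histone deacetylases, had 0 of 10 called and a median of -0.10. Among them hdac4.S was at -0.18 (SE 0.16) and hdac9.L at -0.26 (SE 0.30). The CRTC rows were crtc1.L, crtc1.S and crtc3.S, and the list held no crtc2 row. The CREB and MEF2 factors had 0 of 16 called and a median of -0.06. Within them crem.L, whose mammalian counterpart gives rise to a cAMP-inducible repressor, was at 2.12 ± 0.896 and 1.62 ± 0.0346 CPM (SD, n = 3) in untreated small and large groups. It was at 3.68 ± 3.64 and 6.18 ± 5.88 CPM in the treated ones. Its fold change of 1.36 (SE 0.56) did not pass the test (edgeR adjusted p = 1, and 0.4344 with the block). crem.S was at 0.96 (SE 0.46, edgeR adjusted p = 1). The Na,K-ATPase subunits, included because a sodium pump is a reported Sik1 target in mammalian cells, had 0 of 11 called and a median of 0.00.

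The CREB target genes were the list in which rows passed the test. The list had 33 rows, of which 22 were kept and 18 lay above 0 (against 47.5% of all genes), and the median log2 fold change was 0.45. In the main test 3 rose and 0 fell, against 0.0874% of all genes called higher. The list was chosen with earlier results of these data known. Its counts, here and with the replicate block, therefore describe the list and are not independent support. junb.S went from 25.3 ± 3.46 and 22.1 ± 4.46 CPM (SD, n = 3) in untreated small and large groups to 54.9 ± 12 and 59.0 ± 19.9 in treated ones, a log2 fold change of 1.27 (SE 0.19, edgeR adjusted p = 0.03198). junb.L changed by 1.51 (SE 0.23, edgeR adjusted p = 0.03198) and nr4a1.L by 2.30 (SE 0.35, edgeR adjusted p = 0.03379). All 3 belong to the immediate early genes, which respond to many stimuli and not to CREB alone.

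With the replicate block 7 CREB target rows rose and 0 fell, against 0.433% of all genes called higher. Beside junb.L, junb.S and nr4a1.L these were fos.L, fos.S, nr4a1.S and egr1.S. Their log2 fold changes without the block were 3.54 (SE 0.84), 2.53 (SE 0.62), 2.07 (SE 0.54) and 1.43 (SE 0.30). In the same order the edgeR adjusted p was 0.548, 0.5889, 0.7396 and 0.2773 without the block, so none passed there. With the block it was 0.003301, 0.03183, 0.0001216 and 0.0167. fos encodes an AP-1 subunit and egr1 a zinc finger transcription factor, and both are immediate early genes too. Other rows of the list had values that did not pass in either fit. Of the 22 kept rows 18 lay above 0, and those that did not pass included egr1.L at 1.40 (SE 0.42) and dusp1.L at 0.48 (SE 0.14). The rows below 0 were g6pc1.1.L at -0.62 (SE 1.45), per1.L at -0.22 (SE 0.16), pck1.L and ppargc1a.L. pck1.L, which encodes the gluconeogenic enzyme PEPCK, was at -0.65 (SE 1.33) and ranged from 0 to 58.5 CPM over the libraries. ppargc1a.L, which encodes a coactivator, was at -0.12 (SE 0.19), and its other copy ppargc1a.S was at 0.04 (SE 0.28). pck1.L did differ among replicate numbers (edgeR adjusted p = 1.15e-07), as did 15 of the 22 rows of the list, against 39.7% of all genes. The count of 3, from the test without the block, depended on single libraries. It was 0 without any 1 of the 6 untreated libraries or without replicate 1 or 2 of thioridazine small groups. With the block, leaving out 1 library gave 5 to 8, a combination chosen after seeing the data.

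**Figure D5:**
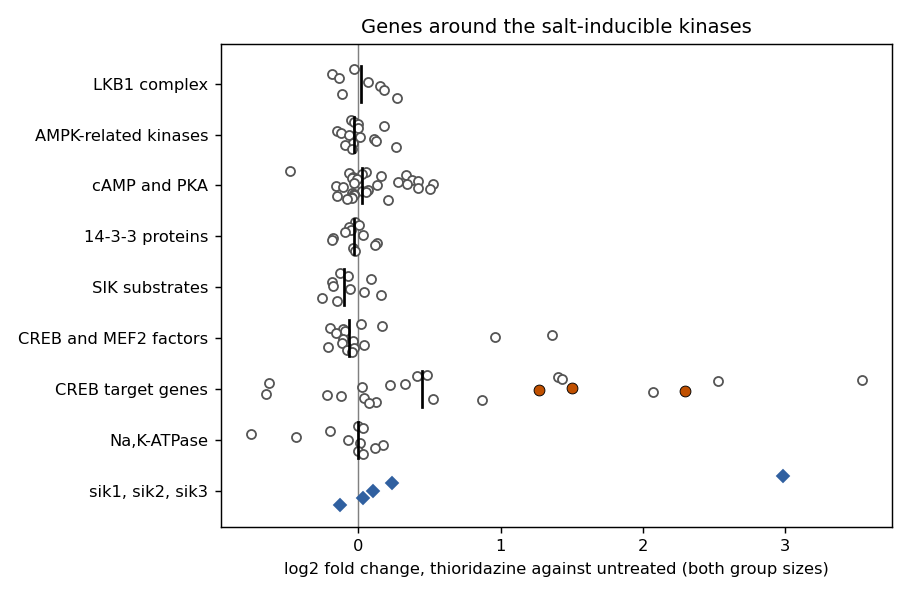
log2 fold change with thioridazine, averaged over the group sizes, for the kept rows of the 8 pathway lists and the 5 sik rows, with 1 point per row, lines at list medians, and filled circles for rows past the test without the block. junb.L, junb.S and nr4a1.L are the filled points, the median of the CREB target genes is 0.45 and the medians of the other 7 lists lie between -0.10 and 0.03.

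Group size left the same lists without a call. In edgeR without the block 0 rows of the 8 lists passed for group size in untreated embryos, in treated embryos, averaged over both or for the difference between the responses, against 0% of all genes.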

How the data were processed

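Embryos were sequenced as single-end reads from stranded libraries. The authors aligned reads to rRNA with Bowtie2 and to the genome with STAR and deposited expected counts per gene from RSEM, of which 25.7% of values were not whole. They also deposited a log2 CPM table of 21720 genes, used here as an alternative. The submitters' processing notes name these tools and limma without versions, and the genome build is not given in the sources used here.

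After rounding of the expected counts, genes with at least 1.8 CPM in 3 or more libraries were kept, and these 21731 genes were scaled by TMM and compared in edgeR 4.0.16 (robust quasi-likelihood, 1 mean per group, Benjamini-Hochberg adjustment, threshold 0.05) in R 4.3.3. CPM are on TMM-scaled library sizes, and log2 CPM used a prior count of 2. The SE of an edgeR log2 fold change was its absolute value divided by the square root of the F statistic of its test. It therefore restates that test and is not a separate measure of spread. Alternatives were the replicate number as a block, DESeq2 1.42.0, RLE size factors, no filter, voom in limma 3.58.1 with and without 2 surrogate variables (sva 3.50.0), limma on the deposited log2 values, summed copies and each library left out. Fits were tested on simulated data. No library pair was a duplicate.

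Replicate numbers come from the sample titles. Over the 18 pairs of libraries with the same number, the correlation of their deviations from the group mean ranged from 0.282 to 0.769, so the numbers were taken to pair the libraries.

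The members, the lists and the markers were chosen with earlier results of these data known. Named genes were the 5 sik rows, in each list the rows past the threshold for thioridazine or otherwise the 2 with the smallest p, and the 5 genes most correlated with sik1.S under each of 2 measures. The CREB targets named from the block, and the egr1.L, dusp1.L, g6pc1.1.L, per1.L, pck1.L, ppargc1a.L and ppargc1a.S rows, were picked after their values were seen. Of 42638 identifiers 40077 matched the RefSeq table.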

Additional observations from a re-analysis of the deposited data

How the results depend on the processing

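Group size gave 0 sik rows called under each of the 21 alternatives for each of the 4 contrasts (with copies summed, 0 of 3), among them the libraries numbered 1 left out, a setting chosen after seeing the data. Among the tested results, the replicate block changed no call other than those of the CREB target genes. The thioridazine log2 fold change of sik1.S stayed between 2.19 and 3.21 over 20 alternatives. These refit the libraries in which sik1.S was chosen for this rise, so the range is a description only. For the CREB target genes, where 3 rose, the replicate block gave 7, DESeq2 7, limma voom 1, voom with 2 surrogate variables 8 and summed copies 1. Leaving out 1 library gave 0 to 3, and with the block as well, a combination chosen after seeing the data, 5 to 8. The cause of these differences was not tested. For differences among replicate numbers, where 2 sik rows were called, leaving out 1 library (chosen after seeing the data) gave 1 to 4. It was 4 without replicate 1 or 2 of untreated small groups, and 1 without untreated small replicate 3, thioridazine small replicate 1 or 3, or thioridazine large replicate 1, while 28% to 45.1% of all genes were called. sik1.S was called in all of these fits.

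sik1.S rested on 7 counts in its lowest untreated library. A group-size difference that misses the threshold here does not show equal levels. In untreated embryos the SE for sik1.S was 0.80 on the log2 scale, and 0.49 with the replicate block. The 4 groups share 1 estimate of the spread of a gene, so the wider spread of the treated libraries enters this SE. Without thioridazine large replicate 1 the untreated difference stayed at 0.57 (edgeR unadjusted p = 0.3015, against 0.4917 with all libraries). The part of low counts in this SE was not tested.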
